A study of Bos taurus with 10 samples.

Results

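Embryos flushed from the uterus of cows that had received the lower of 2 senktide doses were compared with embryos of vehicle cows, in 6 of the 10 arrays of the series. The arrays were chosen by their titles (senktide 30, numbers 1 to 4, and vehicle, numbers 1 and 2). The features described are the 2504 probes, of 43653 on the array, whose spots the scanner software marked as well above background on all 6 arrays, so that no value rests on background alone. These were 5.74% of the probes and stood for 1573 genes with a symbol.

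The treated cows received senktide into a vein at 30 nmol/min for 2 h, beginning 48 h after superovulation treatment was started. The vehicle arrays are labelled DMSO. All cows were superovulated and inseminated with frozen and thawed semen at 108 and 120 h, and embryos were flushed on day 7 after the first insemination, so that superovulation is common to both groups. By the design text, the question was whether the infusion alters how good and how advanced such embryos are. The cows received the agent more than a week before the flush, and no label gives the number of embryos per sample, their stage, the cows' age, or whether samples came from separate cows. The p-values therefore measure the spread between these samples only, which may be technical. The extraction text of the labels names endometrium, while titles, source and tissue name embryos.

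Senktide is a peptide agonist of the neurokinin 3 receptor, through which neurokinin B acts on the hypothalamic neurons that drive pulses of gonadotrophin-releasing hormone. Those pulses drive luteinizing hormone, and through it the growth of follicles and the maturation of the oocyte. A bovine embryo at this age is usually a morula or blastocyst. Its outer layer, the trophectoderm, is an epithelium rich in keratins that pumps fluid into the blastocoel and later forms the placenta, and its inner cell mass gives the embryo proper and the primitive endoderm.

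The bulk of detected probes differed little, and none passed the threshold. With limma and Benjamini-Hochberg adjustment over the 2504 probes, 0 (0%) had an adjusted p under 0.05, and the smallest adjusted p was 0.323. At an unadjusted p under 0.05 there were 292 probes, 87 higher and 205 lower at 30 nmol/min, where 125.2 would be reached without any difference. The split into higher and lower depended on the setting, at 146 and 147 with quantile normalization, 147 and 133 with normexp, and 114 and 154 with slide as a block. On the log2 scale the differences ran from -1.97 to 1.73, with a median of -0.06. The middle 95% of probes lay between -0.75 and 0.54. For 86.0% of probes the 95% confidence interval of the difference lay within 1 log2 unit either side of 0, and for 36.3% within 1.5-fold. The interval reached a median of 0.45 to either side of the estimate, a factor of 1.36. All values given here for a gene are log2 signals of its brightest detected probe, relative to the 75th percentile of the detected probes on the same array. They are measured within the detected probes: with every probe on the array used for the 75th percentile, the median difference over the detected probes was 0.99, a shift of 1.06 for every probe, so a direction here is relative to the other detected genes. Without that recentring 38 of the 44 lower genes named under the rule would lie above 0. Over all 1573 genes 40.9% were higher and 59.1% lower, which is the background for the counts of gene lists given here. As bulk RNA was measured, fewer cells of a type and less RNA per cell cannot be told apart.

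The arrays lay on 3 slides, and the groups were not spread evenly over them. Slide 1 held vehicle 1 and 30 nmol/min 1, slide 2 held vehicle 2 and 30 nmol/min 2, and slide 3 held 30 nmol/min 3 and 4 with no vehicle array. The share of probe spots well above background was 7.17% and 9.44% in vehicle and 11.53%, 8.77%, 18.3% and 19.6% at 30 nmol/min. The means were 8.31% ± 1.603 (SD, n = 2) and 14.5% ± 5.22 (SD, n = 4), with an exact two-sided permutation p of 0.2, where the smallest p that 15 arrangements allow is 0.0667. Within slide 1 the treated array was 4.36 points higher and within slide 2 it was 0.667 points lower, so the 2 high shares are those of slide 3. Correlations between arrays over the probes lay between 0.939 and 0.980, the highest being between the 2 arrays of slide 3. The 2 vehicle arrays correlated at 0.948, and 95 probes differed by more than 1 log2 unit between them.

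The probes behind the genes most discussed here are shown by the first 30 of their 60 bases as listed in the array files, because each value is what that stretch of sequence captured. No part is in capitals, and coordinates are those of the whole probe on build Btau_3.1, whose gene models were not used here, so exon or UTR position is not given.
GNPTG, chr25:1531935-1531994, plus strand: cagcaggccctcggggttgtcctcaaagat
SNRPD1, chr24:35730520-35730579, minus strand: ctgtttcacagggaagaatgttcaagtttt
SSLP1, chr29:30637835-30637894, plus strand: agttcaattcagttcagttcagttgctcag
GATA2, chr22:61198786-61198845, plus strand: gtctgtaaaaactgtatgctctcttcctac
TFAP2C, chr13:60149681-60149740, minus strand: ggaattgaactccttgcctgtaaatgttcc

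Among genes that were higher at 30 nmol/min, the 12 with the smallest p and no overlap of the groups were SNRPD1, HEBP1, PEPD, CD81, ANXA2, CISD1, PTGES3, MRPL4, ROGDI, GCSH, HEXIM1 and SNU13. Of all 1573 genes, 126 (8.01%) lay higher without overlap and 54 (3.43%) were higher at an unadjusted p under 0.05. SNRPD1, a core protein of the spliceosomal small nuclear ribonucleoproteins, lay at -1.10 and -1.15 in vehicle and at -0.44, -0.43, -0.27 and -0.12 at 30 nmol/min. All 4 treated arrays were above both vehicle arrays, by 0.81 ± 0.17 (SE) on average, a factor of 1.75 with an adjusted p of 0.323 by limma, and the difference was 0.65 within slide 1 and 0.72 within slide 2. SNU13, which binds the U4 small nuclear RNA, was higher by 0.64.

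HEBP1, a heme-binding protein, had the largest difference of the named higher genes. Its values were -1.95 and -2.14 in vehicle and -0.67, -0.58, -1.48 and -0.55 at 30 nmol/min, so 1 treated array lay well below the other 3. The difference was 1.22 ± 0.27 (SE), a factor of 2.33, and the gene's second detected probe was higher by 0.33 with overlapping groups. PEPD, a peptidase that releases proline, lay at -1.81 and -2.58 in vehicle and between -1.29 and -0.61 at 30 nmol/min. Its difference was 0.67 within slide 1 and 1.97 within slide 2, and it was 1.53 without vehicle 1 and 0.76 without vehicle 2.

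CD81, a tetraspanin of the cell surface, was at -0.17 and -0.26 in vehicle and at 0.32, 0.51, 0.47 and 0.59 at 30 nmol/min, a difference of 0.69 ± 0.16 (SE). ANXA2, a calcium-dependent membrane-binding annexin, lay at -0.54 and -0.63 in vehicle and at -0.03, 0.12, 0.10 and 0.11 at 30 nmol/min, a difference of 0.66 ± 0.16 (SE). The groups were apart by more than the spread within either for both genes, which had been chosen for groups that do not overlap. The outer mitochondrial membrane protein CISD1 was higher by 0.66 at its brightest probe and by 0.70 at a second one, and GCSH, a carrier protein of the glycine cleavage system in mitochondria, was higher by 0.73, with both of its other probes higher too. By coordinates, 1 of these other GCSH probes overlaps the brightest on chr18, and 1 is placed on chr10. MRPL4, a protein of the mitochondrial ribosome, was higher by 0.72, and HEXIM1, an inhibitor of the transcription elongation factor P-TEFb, by 0.73.

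**Figure D1:**
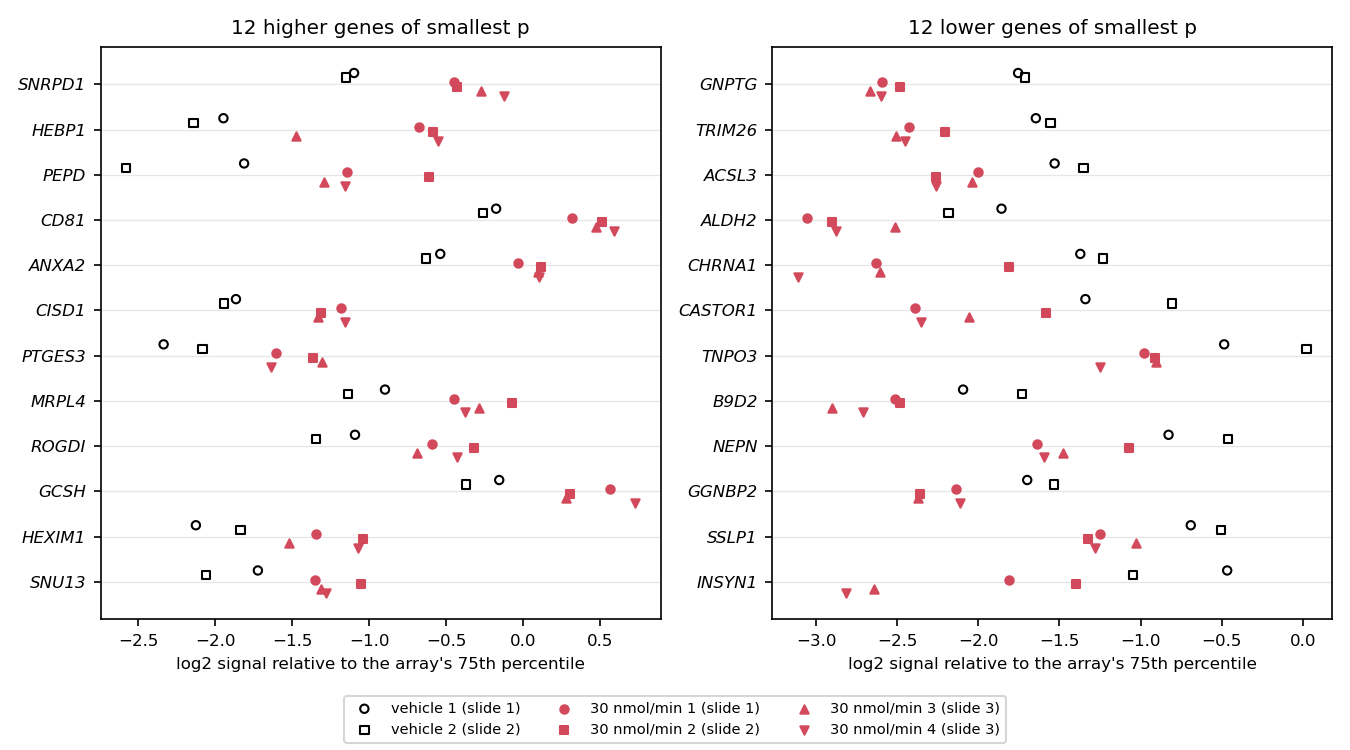
Log2 signal relative to the array's 75th percentile (x axis) of the 12 higher and the 12 lower genes with the smallest p, with 1 point per array, open black for vehicle and filled red for 30 nmol/min. The genes were chosen for groups that do not overlap. SNRPD1 lies between -1.15 and -1.10 in vehicle and between -0.44 and -0.12 at 30 nmol/min.

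The sizes of these differences depended on the background correction. With normexp and quantile normalization, which adds an offset of 50 to the signal before the logarithm, 25 of the 41 higher and 33 of the 44 lower named genes had less than 1/1.5 of their difference, GNPTG going from -0.85 to -0.25, TNPO3 from -0.78 to -0.24, ARL6IP4 from -1.70 to -0.41, SIRT1 from -0.62 to -0.13 and HEBP1 from 1.22 to 0.65. SNRPD1 was at 0.56 and ANXA2 at 0.54 in that setting.

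Lower genes were more numerous: 196 of 1573 (12.5%) lay lower without overlap and 129 (8.2%) were lower at an unadjusted p under 0.05. The 12 of smallest p were GNPTG, TRIM26, ACSL3, ALDH2, CHRNA1, CASTOR1, TNPO3, B9D2, NEPN, GGNBP2, SSLP1 and INSYN1. All but TNPO3, NEPN and SSLP1 had a mean signal below -1.57, the upper end of the dimmest 835 probes described below. GNPTG, a subunit of the enzyme that tags lysosomal enzymes with mannose 6-phosphate, lay at -1.75 and -1.71 in vehicle and at -2.59, -2.48, -2.67 and -2.60 at 30 nmol/min. It had the smallest p of the named genes (difference -0.85 ± 0.16 SE, adjusted p 0.323 by limma), and the difference was -0.84 within slide 1 and -0.77 within slide 2. Before scaling, its processed signal was 23.5 and 37.5 in vehicle and 29.4, 17.8, 62.8 and 66.8 at 30 nmol/min. The difference is thus one relative to the other detected probes. A second GNPTG probe was lower by 0.24, with overlapping groups. It is placed at chr25:1531941-1532000 on the same strand, so most of its stretch is that of the first probe.

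TRIM26, a ubiquitin ligase of the tripartite motif family, lay at -1.65 and -1.55 in vehicle and at -2.42, -2.21, -2.51 and -2.45 at 30 nmol/min. The groups did not overlap, and the difference was -0.78 and -0.65 within slides 1 and 2. Before scaling, the TRIM26 probe read 25.3 and 41.8 in vehicle and 33.1, 21.5, 70.2 and 73.9 at 30 nmol/min. ACSL3, which activates long-chain fatty acids for lipid droplets, was lower by 0.70, at -1.53 and -1.35 in vehicle and between -2.26 and -2.0 at 30 nmol/min. ALDH2, the mitochondrial aldehyde dehydrogenase, was lower by 0.82, at -1.86 and -2.18 in vehicle and between -3.05 and -2.51 at 30 nmol/min. CASTOR1, an arginine sensor of the mTORC1 pathway, lay at -1.34 and -0.81 in vehicle and at -2.39, -1.58, -2.06 and -2.35 at 30 nmol/min, and TNPO3, an importin that carries splicing factors into the nucleus, was lower by 0.78.

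The largest lower differences were of dim probes, and the difference from vehicle was greatest on slide 3. ARL6IP4 lay at -1.54 and -1.97 in vehicle and at -3.17, -2.10, -4.26 and -4.31 at 30 nmol/min. Its difference was -1.70 in the fit, -1.62 within slide 1, -0.12 within slide 2, and -2.53 between slide 3 and the vehicle mean. Before scaling, the processed signal of this probe was 27.2 and 31.3 in vehicle and 19.8, 23.2, 20.7 and 20.4 at 30 nmol/min, while the 75th percentile that it was divided by was 79.2 and 122.9 in vehicle and 177.5, 99.4, 398.5 and 404.4 at 30 nmol/min. TMEM63B, JDP2 and ATN1 were lower by 1.37, 1.35 and 1.29, with slide 2 differences of -0.04, -0.56 and 0.52, and without vehicle 1 TMEM63B was at -0.86 and ATN1 at -0.82. INSYN1, lower by 1.41, differed by -1.34 within slide 1 and by -0.36 within slide 2. Its unscaled signal was 57.3 and 59.6 in vehicle and 50.6, 37.6, 63.9 and 57.3 at 30 nmol/min. CHRNA1, a subunit of the muscle acetylcholine receptor, was lower by 1.24, with -1.26 and -0.58 within slides 1 and 2.

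The excess of lower probes was in the dim ones. When the probes were ranked by mean signal and split in 3, of the 835 dimmest 14 were higher and 135 lower at an unadjusted p under 0.05, and the median difference was -0.18. That median was -0.22 within slide 1, 0.05 within slide 2 and -0.24 between slide 3 and the vehicle mean. Of the middle probes 45 were higher and 44 lower, and of the brightest 28 and 26. Of genes among the dimmest 17.0% lay lower without overlap, against 9.82% at middle signal and 10.4% among the brightest. The share of spots above background and the slide moved with these counts, and their part in them was not tested.

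Whether the 2 within-slide comparisons give the same genes can be read directly, since replicate numbers 1 and 2 of both groups shared slides. Over the 2504 probes the difference within slide 1 and that within slide 2 had the same sign for 53.7% and correlated at r = 0.072 (Spearman 0.096). This is a description across probes, which share the 4 arrays. Both differences exceeded 1.5-fold in the same direction for 15 probes higher and 14 lower. Different probes of 1 gene went together more often: of 387 genes with more than 1 detected probe, the second brightest had the sign of the brightest in 275 (71.1%), with r = 0.507 across genes, the 2 probes being read on the same arrays.

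**Figure D2:**
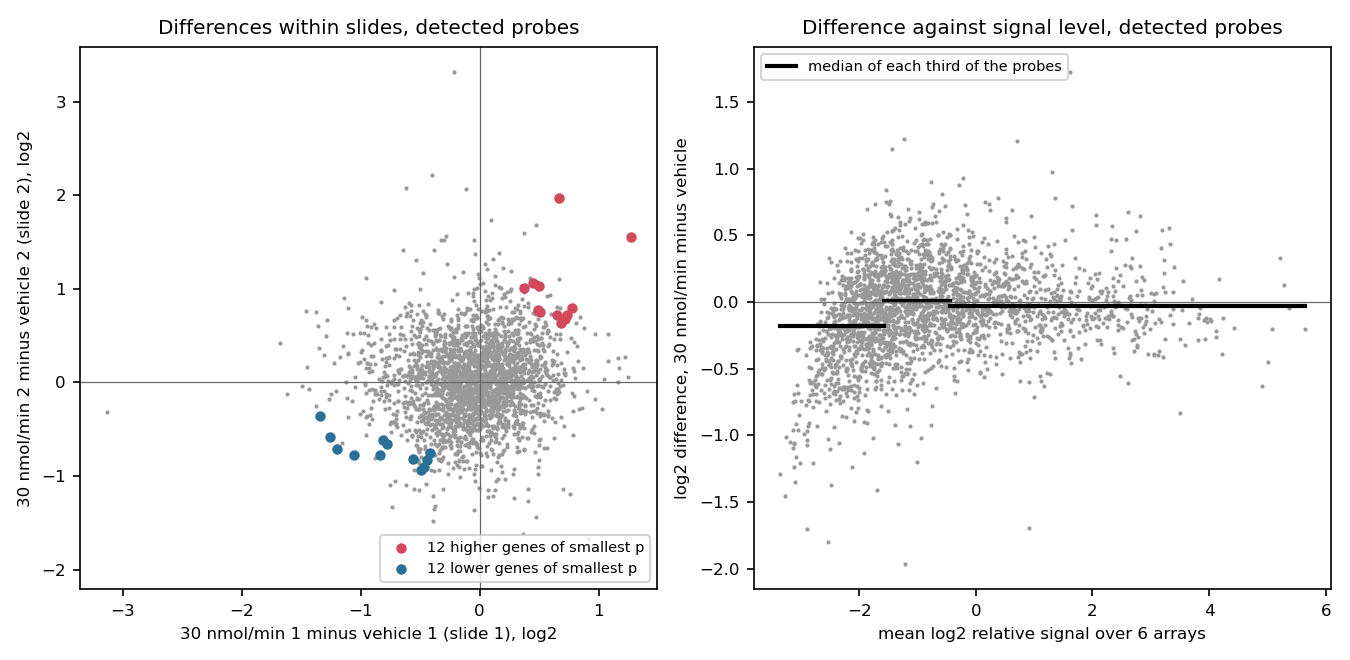
Left, the log2 difference within slide 2 (y axis) against that within slide 1 (x axis) for each detected probe in grey, with the 12 higher genes of smallest p in red and the 12 lower in blue, which were chosen to share a sign. Right, the log2 difference of the 2 groups against the mean log2 relative signal, with the median of the dimmest, middle and brightest probes as a black bar at -0.18, 0.01 and -0.03.

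Blastocyst genes were checked first as a test of the labels. The trophectoderm markers KRT8, KRT18, GATA2, GATA3 and TFAP2C were well above background on all 6 arrays, as was the inner cell mass marker SOX2. CDX2, a trophectoderm regulator, NANOG of the inner cell mass, and GATA4, GATA6 and SOX17 of the primitive endoderm were so on none. POU5F1 was above background on 0 of 2 vehicle and 2 of 4 treated arrays.

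For the epithelial keratins KRT8 and KRT18 the groups overlapped. KRT8 was at 4.21 and 3.90 in vehicle and at 4.45, 4.08, 4.42 and 3.97 at 30 nmol/min, and the 95% interval of its difference ran from -0.28 to 0.63. That difference was 0.33 without vehicle 1 and 0.02 without vehicle 2. KRT18 was at 3.8 and 3.1 in vehicle and between 3.35 and 3.95 at 30 nmol/min, a difference of 0.16 that was -0.19 without vehicle 2. Both are high-signal probes with overlapping groups, and the intervals do not exclude modest differences of either sign. JUP, the plakoglobin of desmosomes and adherens junctions, was at -0.66 and -0.30 in vehicle and between -0.19 and -0.04 at 30 nmol/min, and its difference of 0.38 was 0.20 without vehicle 1. Of the 5 detected members of the list of keratins and desmosomes 4 were higher and 1 lower, with a median of 0.16 against -0.06 over all 1573 genes.

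Trophectoderm transcription factors gave 4 detected members of 27 on the array. GATA2, which activates trophoblast genes, lay at -0.96 and -0.80 in vehicle and at -0.48, -0.46, -0.30 and -0.55 at 30 nmol/min. The groups did not overlap, and the difference was 0.43 ± 0.16 (SE) with an adjusted p of 0.402 by limma. TFAP2C, an AP-2 factor needed for trophectoderm, lay at -2.08 and -1.49 in vehicle and at -1.04, -1.45, -1.27 and -1.23 at 30 nmol/min. Its difference of 0.54 was 1.04 within slide 1 and 0.04 within slide 2, and 0.24 without vehicle 1. GATA3 differed by 0.07, and by -0.19 without vehicle 1. KLF6, a zinc-finger factor, was lower by 0.28 without overlap. Thus 3 of the 4 were higher, 2 of them without overlap, and 1 lower, with a median of 0.25 that was 0.40 within slide 1 and 0.01 within slide 2. It was 0.03 without vehicle 1 and -0.05 when probes detected on at least 2 arrays were admitted. Without overlap 8.01% of all genes lay higher and 12.5% lower, and 4 members are too few to be read closely against that.

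Inner cell mass and primitive endoderm genes showed no separation of the groups. SOX2 lay at -1.66 and -2.34 in vehicle and at -1.98, -1.85, -2.78 and -2.10 at 30 nmol/min. Its difference of -0.18 became 0.16 without vehicle 1 and 0.08 with slide as a block. SPARC, a matrix protein abundant in primitive endoderm, was at -0.23 and 0.59 in vehicle and between -0.34 and -0.01 at 30 nmol/min, a difference of -0.37 that was 0.04 without vehicle 2. Of the 5 detected members 4 were lower and 1 higher, none without overlap. Of all genes 8.01% lay higher and 12.5% lower without overlap, and 5 members are too few to be read closely against that.

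Fluid transport and junction genes were likewise within the spread. ATP1B3, a beta subunit of the sodium pump that drives blastocoel filling, lay at 1.42 and 1.17 in vehicle and between 1.37 and 1.61 at 30 nmol/min. Its difference was 0.18, 0.06 without vehicle 2 and -0.09 with normexp background correction and quantile normalization. CDH1, the E-cadherin of adherens junctions, lay at 0.22 and 0.26 in vehicle and at 0.37, -0.08, 0.26 and 0.12 at 30 nmol/min. None of the 9 transport or 8 junction genes separated the groups, where 8.01% of all genes lay higher and 12.5% lower without overlap. Lists of this length are too short to be read closely against those shares.

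**Figure D3:**
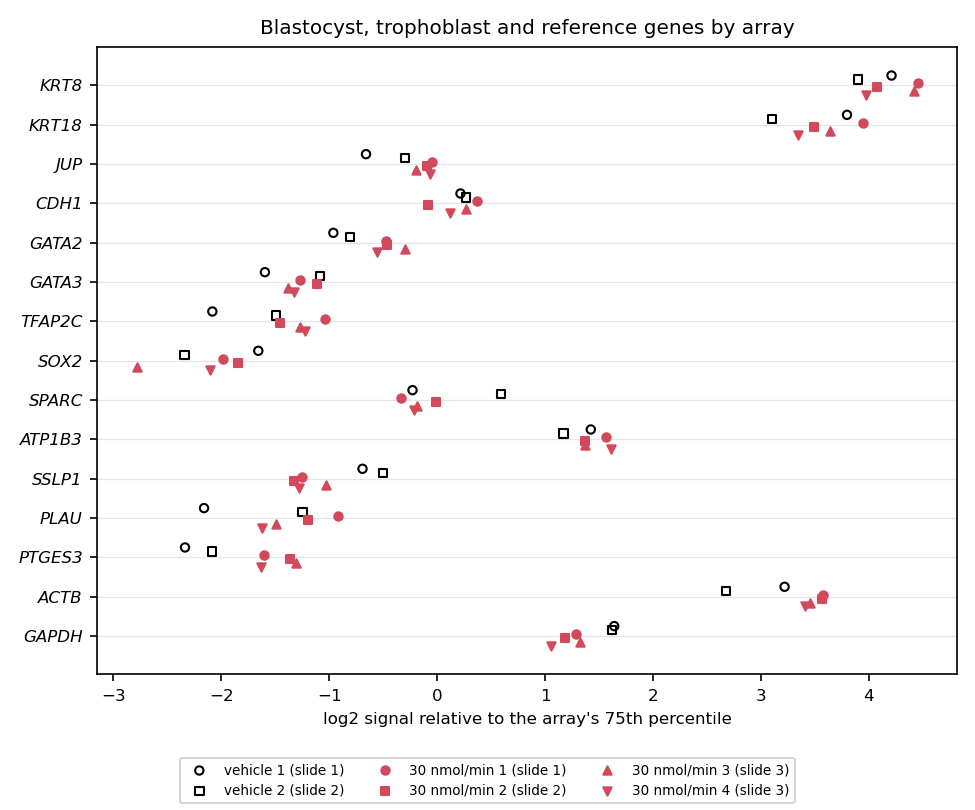
Log2 signal relative to the array's 75th percentile (x axis) of blastocyst, trophoblast and reference genes, with 1 point per array, open black for vehicle and filled red for 30 nmol/min. The groups overlap for KRT8, KRT18, CDH1, GATA3, SOX2 and ATP1B3 and do not overlap for GATA2, TFAP2C, SSLP1, PTGES3, ACTB and GAPDH.

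In the list of trophoblast secreted products, SSLP1 lay at -0.69 and -0.50 in vehicle and at -1.25, -1.32, -1.03 and -1.28 at 30 nmol/min. The difference was -0.62 ± 0.17 (SE), with -0.56 and -0.82 within slides 1 and 2. The probe shares a run of at least 20 bases with 1 other detected probe that has no gene name, which was lower by 0.14 with overlapping groups. Whether the 2 capture the same RNA was not tested. PLAU, the urokinase that degrades matrix at implantation, differed by 0.40 with overlapping groups, and by -0.06 without vehicle 1. The cathepsins CTSB, CTSD, CTSL and CTSZ lay between -0.09 and 0.10. In all 4 of 7 detected members were higher and 3 lower.

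Only 2 of the 17 prostaglandin synthesis genes were detected. PTGES3, the cytosolic prostaglandin E synthase that is also the HSP90 co-chaperone p23, lay at -2.34 and -2.08 in vehicle and at -1.60, -1.37, -1.31 and -1.64 at 30 nmol/min. The difference was 0.73 ± 0.18 (SE), and it was 0.73 within slide 1, 0.72 within slide 2 and 0.74 for slide 3 against the vehicle mean. AKR1B1, an aldose reductase with prostaglandin F synthase activity, was higher by 0.24.

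PTGES3 also belongs to the chaperones, of which 20 of 30 detected members were higher and 10 lower, with a median of 0.13. HSP90AB1, the constitutive cytosolic HSP90, lay at 2.12 and 2.21 in vehicle and at 2.69, 3.13, 3.08 and 2.45 at 30 nmol/min, a difference of 0.67 ± 0.22 (SE). Its 2 dimmer probes differed by 0.27 and -0.07. Of the chaperones 3 were higher at an unadjusted p under 0.05 and 1 was lower, and 5 lay higher and 3 lower without overlap. The latter are 16.7% and 10% of the list, where all genes gave 8.01% and 12.5% (3.43% and 8.2% by the unadjusted p). The median was 0.15 within slide 1 and 0.09 within slide 2. In the secretory pathway 15 of 26 genes were higher, among them MANF, a secreted factor of the endoplasmic reticulum stress response, by 0.43, while OST4, a subunit of oligosaccharyltransferase, was lower by 0.66. The proteasome split evenly, with 14 higher and 14 lower, PSMB7 and PSMD7 being lower by 0.39 and 0.51.

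Cytoskeletal genes were more often higher than lower. Of 28 actin and myosin genes 18 were higher, 4 of them without overlap, and 10 lower, 1 of them without overlap, with a median of 0.10. Those without overlap are 14.3% and 3.57% of the list, where all genes gave 8.01% and 12.5%. ACTB, cytoplasmic beta actin, lay at 3.22 and 2.68 in vehicle and at 3.57, 3.57, 3.46 and 3.40 at 30 nmol/min. The difference was 0.55 ± 0.19 (SE), with 0.36 and 0.89 within slides 1 and 2, and it was 0.28 without vehicle 2. A second ACTB probe was higher by 0.65. CAPZA1, which caps actin filaments, was higher by 0.58, or 0.38 without vehicle 2. Of 14 tubulins and intermediate filament genes 11 were higher and 3 lower. Without overlap 4 (28.6%) lay higher and 1 (7.14%) lower, where all genes gave 8.01% and 12.5%. TUBA1B lay at 1.67 and 1.67 in vehicle and at 1.70, 2.73, 2.27 and 2.28 at 30 nmol/min. Its difference was 0.03 within slide 1 and 1.06 within slide 2, and its dimmer probes differed by 0.46 and -0.18 with overlapping groups. The nuclear lamin gene LMNA was higher by 0.44, or 0.22 without vehicle 2. The list's median was 0.00 within slide 1 and 0.43 within slide 2.

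All 8 detected mitochondrially encoded transcripts were lower at 30 nmol/min, with a median of -0.35 against -0.06 for all genes. ND1, a subunit of complex I, lay at 1.35 and 0.95 in vehicle and at 0.84, 0.00, 0.65 and 0.73 at 30 nmol/min, and its 3 probes were lower by 0.59, 0.51 and 0.47. The first of these was -0.39 without vehicle 1. ND5, of the same complex, lay at -1.45 and -2.11 in vehicle and at -2.67, -1.90, -2.71 and -2.79 at 30 nmol/min, a difference of -0.74 that was -0.41 without vehicle 1. CYTB, COX1, ND4, ATP6, COX2 and COX3 were lower by 0.54, 0.29, 0.41, 0.29, 0.20 and 0.15. Only 2 of the 8 were lower without overlap and 2 had an unadjusted p under 0.05. Of all genes 12.5% were lower without overlap and 8.2% were lower at that p. The list's median was -0.49 within slide 1 and -0.10 within slide 2, and it was -0.63 without vehicle 2. These transcripts come from 1 genome and are not independent of each other.

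The nuclear-encoded subunits of the same complexes did not move together: 27 of 67 were higher and 40 lower, with a median of -0.05. COX5A was higher by 0.49, at 0.68 and 0.65 in vehicle and 1.21, 1.24, 1.08 and 1.09 at 30 nmol/min. COX7C, of the same complex, was lower by 0.50, at 0.61 and 0.44 in vehicle and between -0.09 and 0.21 at 30 nmol/min. The groups did not overlap for either gene. In the mitochondrial ribosome and import machinery 21 of 46 were higher, with MRPL16 at 0.52. Without overlap 6 (13.04%) lay higher and 2 (4.35%) lower, where all genes gave 8.01% and 12.5%.

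Cytosolic ribosomal proteins were lower in 52 of 75 (69.3%, where 59.1% of all genes were) and higher in 23, with a median of -0.12. Without overlap 15 (20%) lay lower and 1 higher, against 12.5% and 8.01% of all genes, and at an unadjusted p under 0.05 there were 2 lower and 1 higher. RPL19 was the one higher without overlap, at 2.38 and 1.52 in vehicle and between 2.43 and 2.60 at 30 nmol/min, and its difference of 0.57 was 0.14 without vehicle 2. The list's median was -0.15 within slide 1 and -0.10 within slide 2. Translation factors split, 16 higher and 17 lower, with EIF3E higher by 0.58 and EIF3K lower by 0.53, both being subunits of initiation factor 3. EIF3E was at 0.17 without vehicle 2 and 0.98 without vehicle 1.

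In central metabolism 7 of 21 genes of glycolysis and the citrate cycle were higher and 14 lower (66.7%, near the 59.1% of all genes). CS, the citrate synthase that opens the citrate cycle, lay at 1.32 and 1.64 in vehicle and at 0.81, 0.48, 1.05 and 0.73 at 30 nmol/min, a difference of -0.71 ± 0.20 (SE). PGK1, a glycolytic kinase, was higher by 0.52. GAPDH, often used as a reference, was at 1.64 and 1.62 in vehicle and at 1.29, 1.18, 1.32 and 1.05 at 30 nmol/min, and its other 2 probes were lower by 0.19 and 0.51. So GAPDH and ACTB lay on opposite sides without overlap, each relative to the other detected genes, while scaling to all probes adds the shift given above to both and turns the GAPDH difference positive. Fatty acid metabolism had 5 higher and 5 lower genes, with the peroxisomal thiolase ACAA1 lower by 0.68 and ATP citrate lyase, ACLY, higher by 0.55.

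Apoptosis genes were lower in 7 of 9, a list too short to be read closely against the 59.1% of all genes. MCL1, an inhibitor of cell death, lay at -0.54 and -0.02 in vehicle and at -1.07, -0.64, -0.74 and -0.61 at 30 nmol/min, and PDCD10 was lower by 0.61. The MCL1 difference was -0.22 without vehicle 2 and -0.74 without vehicle 1. Without overlap 2 of the 9 lay lower, where 12.5% of all genes did. The list holds inhibitors as well as effectors of cell death, and its median was -0.21. Of 8 genes of embryonic genome activation 7 were lower, where 59.1% of all genes were, with a median of -0.18. This list was dim, with a median signal of -2.25. Among the dimmest 541 genes 399 were lower, and the dimmest probes also had a median of -0.18. The list is thus not read apart from other dim genes. SIRT1, a deacetylase, lay at -2.20 and -2.14 in vehicle and at -2.95, -2.58, -2.73 and -2.92 at 30 nmol/min, with -0.75 and -0.44 within slides 1 and 2. Cell cycle genes were 9 higher and 14 lower, ANAPC11 being lower by 0.44 and the cyclin CCNB2 by 0.68 with overlapping groups. Antioxidant genes included PARK7, higher by 0.59 (0.25 without vehicle 2 and 0.92 without vehicle 1), and the peroxiredoxin PRDX5, lower by 0.40. Chromatin genes gave HMGN2 and SMARCE1, higher by 0.47 and 0.43, and of 19 members 10 were higher and 9 lower. Without overlap 2 (10.53%) lay in each direction, where all genes gave 8.01% higher and 12.5% lower.

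**Figure D4:**
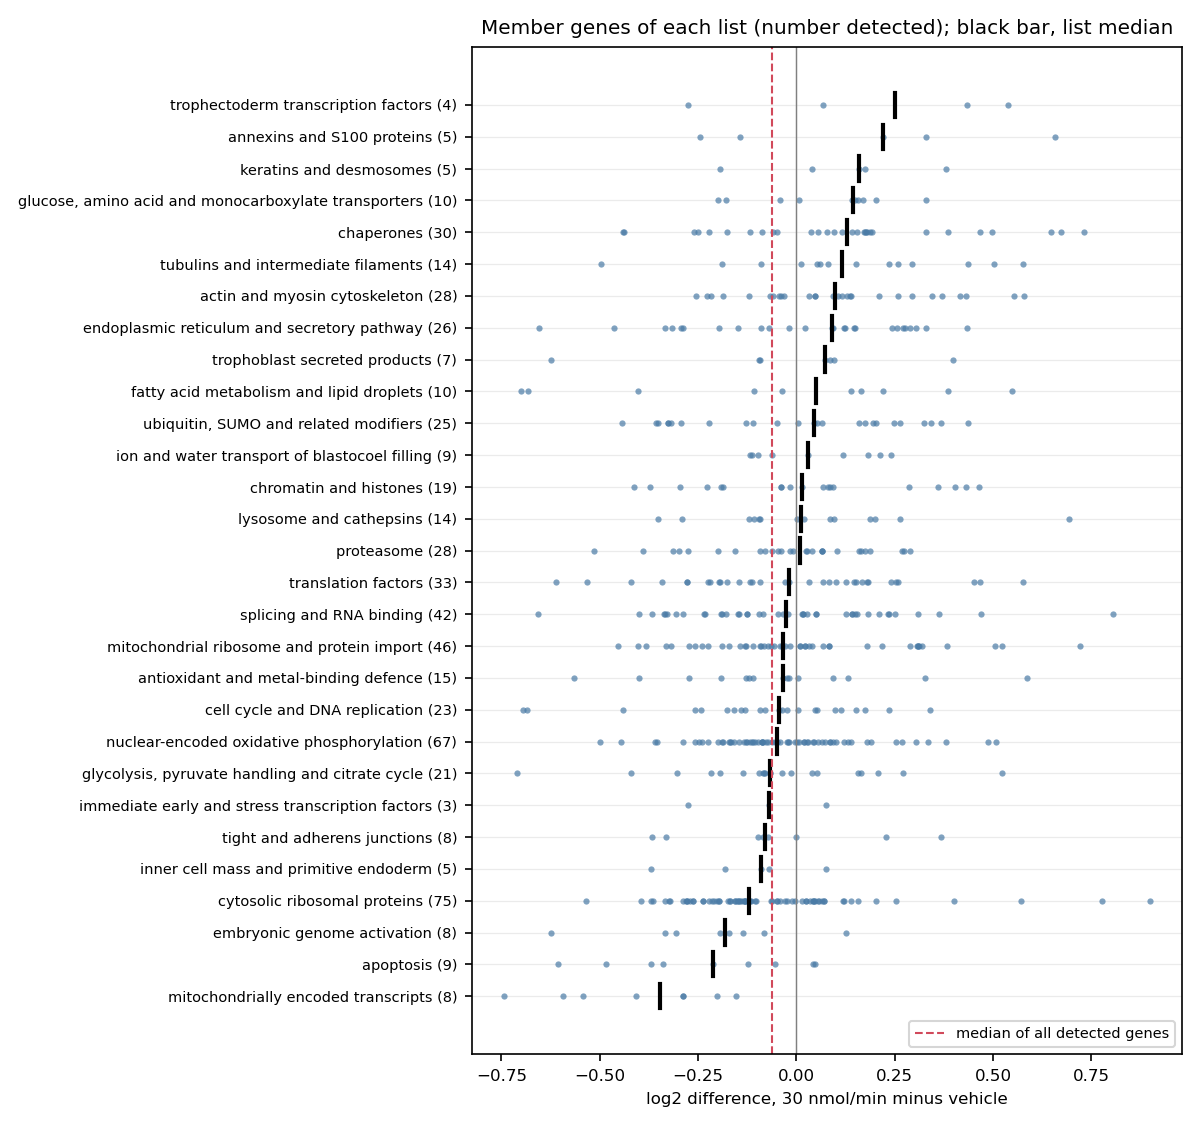
Log2 difference of 30 nmol/min from vehicle (x axis) for each detected gene of the 29 lists with at least 3 detected genes, with the list median as a black bar and the median of all 1573 genes as a dashed red line at -0.06. No member passed the adjusted threshold. Medians run from 0.25 for trophectoderm transcription factors to -0.35 for mitochondrially encoded transcripts.

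Genes of neurokinin, gonadotrophin and steroid signalling were on the array with 30 members, and 0 were detected. Markers of other cells were near the background. Of the list of leukocyte genes LYZ alone was detected on all 6 arrays, lower by 0.53 at 30 nmol/min, and 0 genes of the lists for red blood cells, uterine epithelium, stroma or cumulus were. CLU, of uterine epithelium, was above background on 1 of 2 vehicle and 4 of 4 treated arrays. PTPRC, ITGB2, COL1A2 and HBA were so on 0 vehicle and 2 treated arrays each, and S100A8, HBB, OVGP1, SERPINA14, COL1A1, INHA, HAS2 and GJA1 on none. The summed relative signal of the leukocyte list, on a linear scale and with genes below background included, was 1.19 to 1.52 in vehicle and 0.468 to 1.47 at 30 nmol/min, and that of the uterine epithelial list 0.883 to 1.33 and 0.185 to 1.14. The lowest sums were on arrays 3 and 4 at 30 nmol/min, 0.491 and 0.468 for leukocytes and 0.185 and 0.262 for uterine epithelium. The 75th percentile that signals were divided by was 398.5 and 404.4 on these arrays, against 79.2 and 122.9 in vehicle. Its part in these sums was not tested. The part of other cells in the results above was not tested.

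A few probes set vehicle 2 apart. At 14 probes, 10 of them among the brightest by mean signal and 4 at middle signal, vehicle 2 lay more than 1 log2 unit below each of the other 5 arrays, and at 1 probe vehicle 1 did. RPL35, a protein of the large ribosomal subunit, had values of -0.18 and -2.55 in vehicle and -0.58, -0.33, -0.40 and -0.57 at 30 nmol/min. Its difference of 0.90 was therefore 2.08 without vehicle 1 and -0.29 without vehicle 2. RPL39 lay at 1.90 and -0.22 in vehicle and between 1.00 and 2.10 at 30 nmol/min. Without vehicle 1, 8 probes passed the adjusted threshold, all higher, and they were of COX4I1, RPL35, LOC513245, RPL17, ATP5PD, RPL9 and 2 without a name, chosen here for that call. Without vehicle 2, 1 probe passed, of LOC521010, lower. The lone vehicle array was assumed to vary like the treated ones.

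The brightest probes of COX4I1 and RPL17 did not share a gap of this size, and RPL35 had only 1 detected probe. Dimmer RPL17 probes read 1.42 and 0.98, 0.21 and -0.55, and -0.80 and -1.37 in vehicle 1 and 2. A further RPL17 probe went the other way, at -1.14 and -0.32. The brightest COX4I1 probe lay at 1.45 and 1.14 in vehicle, against 1.13 and -0.94 at the called one, and the brightest RPL17 probe at 1.44 and 1.29 against 1.55 and -0.23. RPL9 has 5 detected probes, and 2 of them are nearly the same sequence. They are shown because vehicle 2 differs between them, and the capitals mark 3 bases that only the second probe holds, 55 of its other bases being shared in order.
RPL9, brightest probe, chr6:60940464-60940523, minus strand: gctgcagaaacaacaagatagatggttcta
RPL9, probe called without vehicle 1, chr6:60940335-60940375, minus strand: agaaacaacaagatagCAGatggttctatg
The first read 2.92 and 2.86 in vehicle and between 2.43 and 2.75 at 30 nmol/min. The second read 2.00 and 0.32 in vehicle and 1.97, 1.70, 2.01 and 1.85 at 30 nmol/min. The marked bases could also be placed elsewhere in the repeat around them, and the cause of the low vehicle 2 value was not tested.

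**Figure D5:**
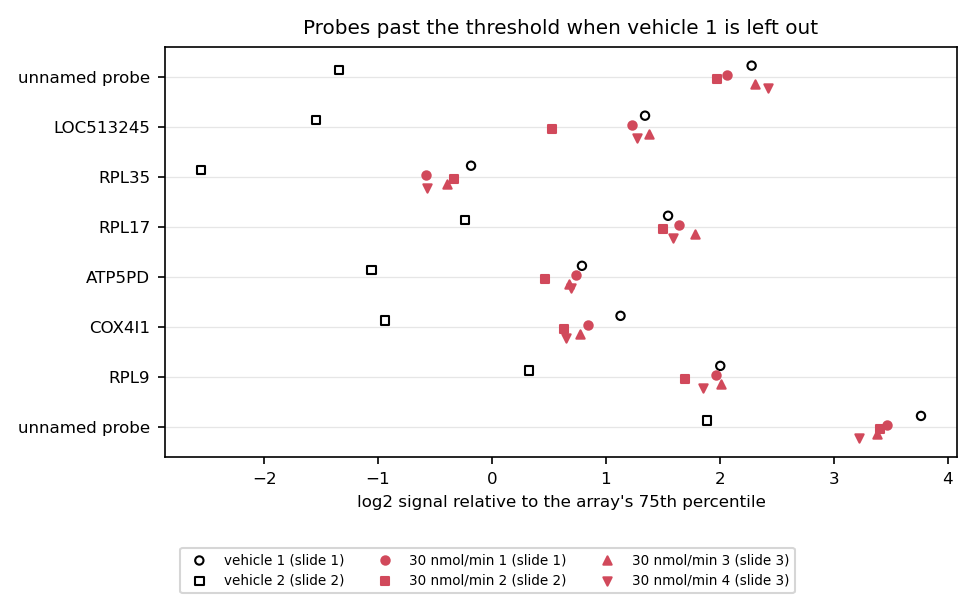
Log2 signal relative to the array's 75th percentile (x axis) of the 8 probes that passed the adjusted threshold when vehicle 1 was left out, with 1 point per array, open black for vehicle and filled red for 30 nmol/min. Vehicle 2 lies far to the left of vehicle 1 at each of them, as for RPL35 at -2.55 against -0.18.

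The arrays of the higher dose, 300 nmol/min, share the vehicle arrays with this comparison, so their values are given only beside it. On the same scale SNRPD1 lay at -0.28, -0.42, -0.32 and -0.41 there, GNPTG at -1.98, -2.17, -2.54 and -2.59, PTGES3 at -1.93, -1.42, -1.64 and -1.43, and CD81 at -1.0, -0.12, -0.27 and 0.09.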

How the data were processed

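Per the labels, 1 array was hybridised with Cy3-labelled total RNA of each sample. The scanner's processed intensity was deposited for every spot. It is background-subtracted and detrended, and the file headers name Feature Extraction 11.5.1.1, where the submitters' processing notes name 10.5.1.1. A deposited matrix of log2 values does not state its scale. It was found to be the processed signal on the log2 scale with the 75th percentile of the array's probes and each probe's median taken off, since at least 99.96% of an array's values came within 0.01 of that. Per the file headers, flags of the deposited files, coded 0 or 1, mark spots well above background or outlying. Outliers were dropped, and 0 spots were saturated.

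Spots of 1 probe were averaged, and log2 values were set against the 75th percentile of the 2504 detected probes of the array. Names came through a RefSeq table (ARS-UCD2.0, names only): 1880 detected probes matched by main accession, 305 by symbol, 10 by a further accession and 9 by synonym. The name in the file was kept for 12, and 288 stayed unnamed. A gene was taken at its brightest detected probe. Groups were compared with limma 3.58.1 (R 4.3.3, lmFit and eBayes, no covariate, 6 arrays), with Benjamini-Hochberg adjustment over all detected probes and a threshold of 0.05. The fit was tested on simulated data. Files were read with Python 3.11.15. The number of arrays limits the precision.

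Named genes were, per direction, the 12 of smallest p whose groups did not overlap and whose within-slide differences shared that sign, the 5 of largest difference, the 2 of smallest p of each list with at least 3 detected genes, and a fixed set, of which 12 were detected. Identifiers starting with LOC were left out. The members and the 40 lists were chosen with earlier results of these data known. Other members of a list are named to complete a count. Some genes that this rule took are not reported here.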

Additional observations from a re-analysis of the deposited data

Results flagged for a closer look

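In 5 of the 87 named genes 1 of the 4 arrays at 30 nmol/min lay far from the other 3 by Dixon's ratio, which chance gives in about 1 of 20 groups. The count is near that share. HEBP1 was at -1.48 on array 3, below the others. ANXA2 was at -0.031 and EIF3K at 0.27 on array 1, the first below and the second above the others. ND5 was at -1.90 on array 2, above the others, and S100A16, a calcium-binding protein, was at -1.42 on array 4, below them. For HEBP1 and ANXA2 the groups did not overlap even with that array, and for ND5 they did.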

How the results depend on the processing

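The count of probes past the threshold was 0 in every setting tried except leave-outs of a vehicle array, where it ranged from 0 to 8 over the 6 leave-outs, the highest without vehicle 1 and 1 without vehicle 2. The smallest adjusted p among settings that keep all 6 arrays was 0.0967, with all 10 arrays sharing the spread. The 292 probes at an unadjusted p under 0.05 became 139 with the 75th percentile of all probes and 139 with the series matrix (all higher in both), 771 with probes detected on at least 2 arrays, 1746 with all probes (29 higher, 1717 lower), 115 when only the brighter detected probes were kept (66 higher, 49 lower), 111 on slides 1 and 2 alone, and 179 to 377 over the leave-outs. Without any difference 385.55 would be reached with probes detected on at least 2 arrays, 2181.9 with all probes, 62.6 with the brighter ones and 125.2 in the other settings named. The 87 higher and 205 lower became 146 and 147 with quantile normalization, 147 and 133 with normexp, and 114 and 154 with slide as a block. The share of spots above background differed by 4.56 to 8.16 points over the leave-outs, and by -0.667 within slide 2.

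Numbers 1 and 2 of the labels give a replicate block, which left 164 probes at an unadjusted p under 0.05 and 0 past the threshold. The deviation of 1 from 2 correlated between groups at r = 0.120 over probes, and with 2 shared numbers the data do not settle whether they pair cows.

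Values of genes and lists under another scaling were recentred on the median of the detected probes before they were compared, so the shift of 1.06 is not counted as a change. Of 1993 such values of named genes under the alternatives, 1972 kept direction and side of the threshold and 20 changed sign. With normexp ATP1B3 was at -0.091, GATA3 at -0.11 and SLC25A3 at -0.029, and with quantile normalization REXO2 was at 0.011. SOX2 was at 0.084 with slide as a block, on slides 1 and 2 alone and with the replicate block. The other sign changes came from leaving out 1 array, over which RPL35 ranged from -0.29 to 2.08 (the highest past the threshold), RPL39 from -0.28 to 1.84, SPARC from -0.78 to 0.040, SOX2 from -0.52 to 0.16, PLAU from -0.057 to 0.85, SLC25A3 from -0.014 to 0.42, KRT18 from -0.19 to 0.51, GATA3 from -0.19 to 0.32, CDH1 from -0.14 to 0.012 and REXO2 from -0.15 to 0.15. Of 696 list medians under the alternatives 77 changed sign and 13 moved by more than the replicate spread, 10 of these with all probes. Leaving out 1 array moved 33 of the named genes by over 1.5 times. The causes were not tested.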
